A study of Bos taurus with 13 samples.

Results

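The let-7 family was described here through its 8 bovine guide-strand miRNAs, bta-let-7a-5p, bta-let-7b, bta-let-7c, bta-let-7d, bta-let-7e, bta-let-7f, bta-let-7g and bta-let-7i (written without the species prefix below). They were chosen by miRNA name, though with earlier results of these data known. They are 8 of the 311 bovine miRNAs listed for any group, and all 8 were listed in all 13 libraries. let-7 miRNAs are small RNAs that guide the silencing complex to mRNAs through a seed, the stretch near the 5′ end that pairs with the target. The members share this seed and are known for a role in differentiation and growth control, with the growth-related mRNAs of the RAS, HMGA2 and IGF pathways among their known targets, and with LIN28 as the protein that blocks their maturation. They are abundant in differentiated cells and also travel in extracellular vesicles (EVs), small sacs of membrane shed by cells into fluids such as follicular fluid.

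Follicular fluid of Holstein Friesian cows and heifers was aspirated in vivo from follicles over 10 mm, EVs were pelleted by ultracentrifugation, and the small RNA of each pool of fluid was sequenced as 1 library. The cows were grouped by energy balance: always negative cows (ANCs; 2 pools, 2 cows) and always positive cows (APCs; 2 pools, 2 cows) were sampled at weeks 5 to 6 after calving, and transient cows (TCs) both at weeks 5 to 6, when their balance was negative (3 pools, 11 cows), and at weeks 9 to 10, when it was positive (3 pools, 7 cows). Heifers, which do not lactate and were in positive balance, formed the reference group (3 pools, 8 animals). The sources used here do not give how animals were divided among pools, nor whether the TCs of weeks 5 to 6 and of weeks 9 to 10 were the same animals, so the spread between pools may be partly technical. The values are CPM, reads scaled to a common library total, and fewer EVs with a miRNA cannot be told apart from fewer copies per EV.

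The reads behind the values were recovered from the deposited numbers. The listed miRNAs of a library together held 145030 to 421435 reads with a median of 327359, which is a part of all reads sequenced. The 8 members had between 264 reads (let-7d, ANC replicate 2) and 39954 reads (let-7b, heifer replicate 2) per library, so their values lie far above the 3 reads taken as the smallest visible abundance, 7.12 to 20.7 CPM. Lists of miRNAs known from other cell types were summed beside them. The 5 leukocyte miRNAs summed to 4858 to 6062 CPM in heifers and 737 to 1533 CPM in ANCs, with 1567 to 4773 CPM in the other pools. miR-122, known from liver, stood at 5369 to 17623 CPM in heifers and at 329 to 5858 CPM in the cow pools. The 2 erythroid miRNAs summed to 131 and 1145 CPM in ANCs, with miR-451 at 0 reads in ANC replicate 1, and to 1717 to 3958 CPM in heifers. They summed to 751 to 10962 CPM in the other cow pools. The 5 epithelial miRNAs summed to 4750 and 7673 CPM in ANCs, 13415 to 20846 CPM in heifers and 5270 to 29408 CPM in the other cow pools. The 4 miRNAs known from follicular cells were highest in ANCs, at 11101 and 11181 CPM, against 4642 to 9175 CPM elsewhere. The paper lists all of these leukocyte miRNAs as lower, and most of the follicular ones as higher, in ANCs than in heifers. Among those it lists as lower there are also miR-122, miR-451 and, of the epithelial list, miR-200b, miR-200c and miR-205. The part of these lists in the let-7 values was not tested.

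let-7 miRNAs made up a large share of the EV miRNA. As a share of the reads of all listed miRNAs, their summed reads were 12.4%, 16.5% and 7.72% in TC pools 1, 2 and 3 at weeks 5 to 6. The shares were 22.3%, 12.3% and 15.6% at weeks 9 to 10. They were 19.3% and 15.1% in ANCs, 11.8% and 8.89% in APCs, and 21.5%, 22.1% and 15.9% in heifers. To compare pools, all 13 libraries were also scaled together with TMM, a method that sets the bulk of the miRNAs equal, over the 262 miRNAs listed for every group. On this scale the family summed to 195374, 209914 and 148283 CPM in heifers, 169577 and 146865 CPM in ANCs, and 132300 and 125073 CPM in APCs. In TCs it summed to 123643, 167281 and 96202 CPM at weeks 5 to 6, and to 193901, 125553 and 129490 CPM at weeks 9 to 10.

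**Figure D1:**
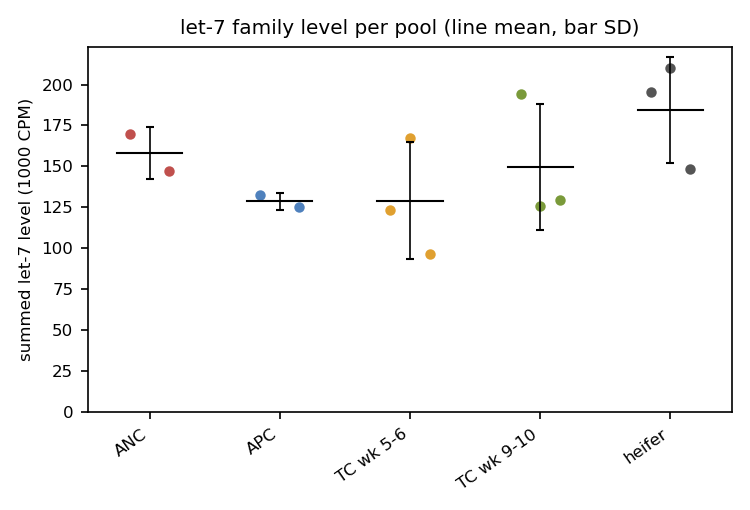
Summed let-7 level of each pool on the y axis (in units of 1000 CPM), by group on the x axis, with points for pools, lines for means and bars for the SD. Both APC pools, at 132300 and 125073 CPM, sit below the lowest heifer pool at 148283 CPM. Pools of each other cow group do so as well, whereas 1 TC pool of weeks 5 to 6, at 167281 CPM, lies within the heifer range.

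The order of the group means was heifers (184524 CPM ± 32216, SD, n = 3), ANCs (158221 ± 16060, n = 2), TCs at weeks 9 to 10 (149648 ± 38375, n = 3), TCs at weeks 5 to 6 (129042 ± 35846, n = 3) and APCs (128687 ± 5110, n = 2). No pair of neighbours in this order was separated, since their pools overlapped in each of the 4 steps. Both APC pools, 2 of the 3 TC pools of weeks 5 to 6 and ANC replicate 2 were below the lowest heifer pool. So were 2 of the 3 TC pools of weeks 9 to 10. As a mean difference of log2 levels from heifers, the family stood at -0.50 in APCs, -0.54 in TCs at weeks 5 to 6, -0.32 in TCs at weeks 9 to 10 and -0.21 in ANCs. The pooled SD of the log2 levels was 0.22 for APCs with heifers, 0.34 and 0.31 for the TC times with heifers, and 0.23 for ANCs with heifers. The sum over the members was not tested. Leaving out single pools, the difference ranged from -0.65 (without heifer replicate 3) to -0.40 in APCs, and with total reads it was -0.94. It ranged from -0.74 (without TC replicate 2) to -0.34 (without TC replicate 3) in TCs at weeks 5 to 6. At weeks 9 to 10 it was -0.52 without TC replicate 1 and -0.20 without TC replicate 2. In ANCs it was -0.36 without heifer replicate 3, and -0.11 without ANC replicate 2 or without heifer replicate 2. For TCs at weeks 9 to 10 the difference depended on the pool: it was -0.01 for replicates 1, whose RNA was measured on one day, and -0.47 for replicates 2 and 3, measured on the next day.

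Within the family the levels spanned more than an order of magnitude. let-7b was the most abundant member in each of the 13 pools, where it ranged from 34164 to 99748 CPM with a median of 51133 CPM, and it ranked between 2 and 10 among the 262 miRNAs. let-7a-5p ranged from 21621 to 45596 CPM (median 35496 CPM, ranks 3 to 17), let-7i from 12501 to 37196 CPM (median 22198 CPM) and let-7f from 12955 to 27551 CPM (median 17487 CPM). These 4 members held 88.1% to 91.8% of the let-7 reads of every pool. The other 4 were let-7c, with a median of 5586 CPM, let-7g with 3987 CPM, let-7e with 3423 CPM and let-7d with 2081 CPM. let-7d varied least, by 1.83 times between its lowest and highest pool, and let-7c most, by 3.47 times.

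**Figure D2:**
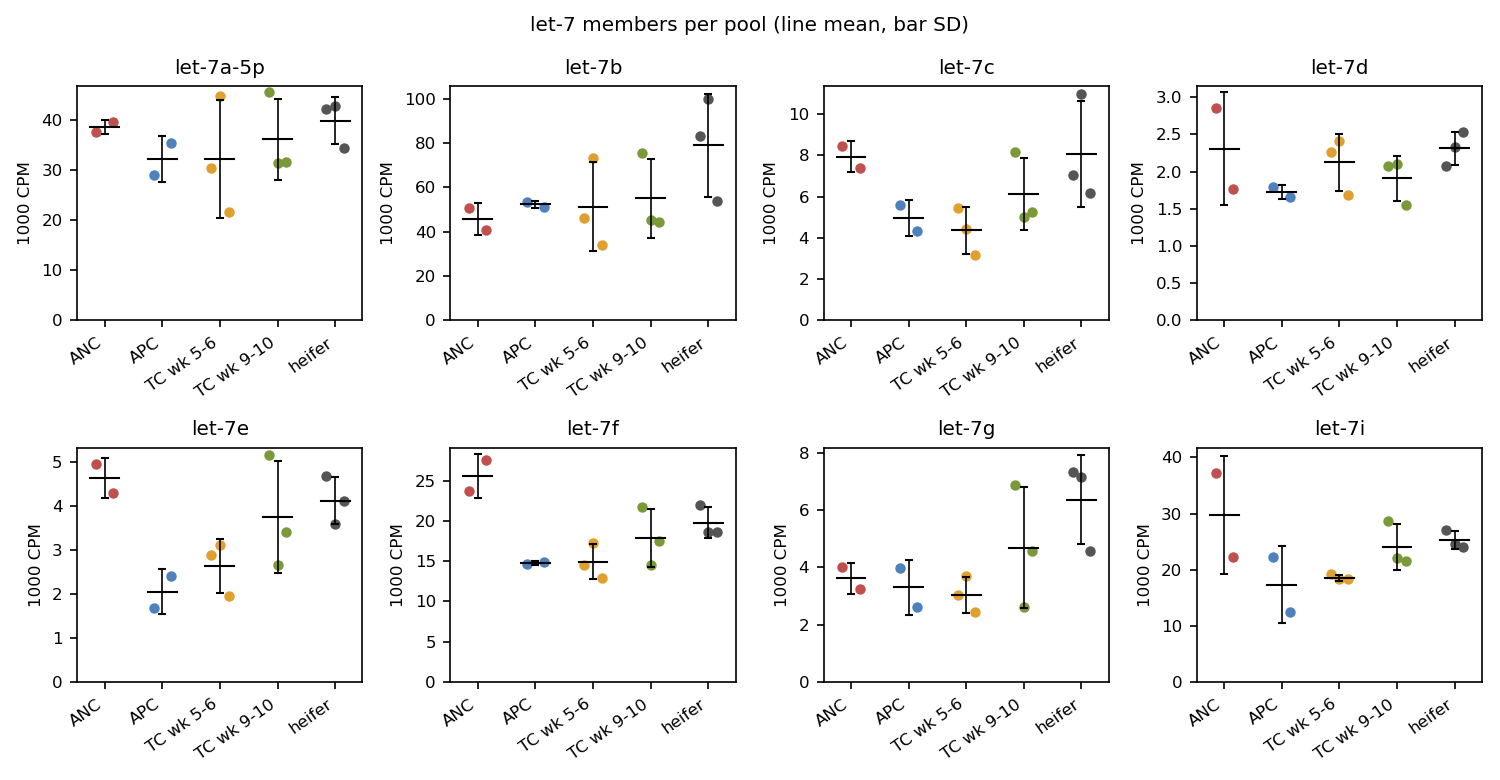
Level of each let-7 member per pool (y axes in units of 1000 CPM, from 0, each with its own range) by group, with points for pools, lines for means and bars for the SD. let-7g lies at 2424 to 4001 CPM in the 7 pools of weeks 5 to 6 and at 4566 to 7344 CPM in the heifer pools, and let-7f is highest in the ANC pools, at 23675 and 27551 CPM.

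let-7g separated the cows of weeks 5 to 6 from heifers. It measured 7344, 7158 and 4566 CPM in heifers, and 3019, 3689 and 2424 CPM in TCs at weeks 5 to 6. It measured 4001 and 3240 CPM in ANCs and 3987 and 2618 CPM in APCs, so that all 7 pools of weeks 5 to 6 were below the lowest heifer pool. For let-7b and let-7i 6 of these 7 pools were, and the share of all miRNAs with such an order was not counted. let-7g was at these levels on the TMM scale. For let-7g the TC pools of weeks 9 to 10 measured 6877, 2625 and 4578 CPM, and 1 of these 3 was below the heifers. The same heifer pools enter each of these comparisons, so they are not independent of each other. The leukocyte sum of every heifer pool was above that of every cow pool, and its part in the let-7g difference was not tested.

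Each cow group was compared with heifers to ask which EV miRNAs differ with lactation and energy balance. Heifers had not calved and were not sampled by week after calving, so lactation cannot be told apart from calving or sampling schedule. For each comparison the 2 groups were scaled together, and limma was applied to log2(CPM + 5), so a fold change can differ a little from the ratio of the levels above. A miRNA was called when its absolute log2 fold change was at least 1, its p-value under 0.05 and its Benjamini-Hochberg adjusted p-value at most 0.25, the thresholds of the authors. With 2 or 3 pools against 3, the exact two-sided permutation test over pools cannot go below 0.1. An adjusted p-value of 0.25 is a lenient limit and admits false calls.

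In TCs at weeks 5 to 6, let-7g fell by 1.05 on the log2 scale against heifers (SE 0.29, 95% interval -1.75 to -0.36; limma, adjusted p = 0.222). The exact permutation p-value for let-7g was 0.1. It was the only let-7 member called in this comparison, 1 of 8, where 6.96% of the 230 miRNAs tested were called. All 8 members had a negative log2 fold change, from -1.05 (let-7g) to -0.14 (let-7d), with a median of -0.55 against -0.03 over all miRNAs. Of the 8 members, 5 (let-7c, let-7e, let-7f, let-7g and let-7i) did not overlap between the groups, where 22.2% of all miRNAs did not.
let-7c, encoded next to miR-99a, measured 5470, 4449 and 3159 CPM in these TCs and 7062, 10975 and 6180 CPM in heifers, a log2 fold change of -0.88 (SE 0.33, adjusted p = 0.243, limma), under the fold limit. let-7e, encoded between miR-99b and miR-125a, measured 2889, 3106 and 1947 CPM in these TCs against 4680, 3598 and 4108 CPM in heifers, a log2 fold change of -0.67 (SE 0.26, adjusted p = 0.252, limma). Every TC pool was below every heifer pool for both members. let-7i was the steadiest member here, at 19140, 18246 and 18246 CPM in TCs against 27023, 24551 and 24013 CPM in heifers, a log2 fold change of -0.45 (SE 0.22, adjusted p = 0.353, limma). let-7a-5p, let-7b and let-7d overlapped between the groups, and their log2 fold changes of -0.37, -0.66 and -0.14 had adjusted p-values of 0.429 to 0.768 in limma. Within the pairs of same-numbered pools let-7b was lower in TCs in all 3, and with the replicate number as a block it had an adjusted p-value of 0.0577 in limma (SE 0.14), under the adjusted limit but short of the fold limit. With the block 6 of the 8 members had an unadjusted p-value under 0.05 in limma, and the share of all miRNAs that did is not given here. Such p-values were also common outside the family, since the 0.0488 of let-7f became 0.160 after adjustment over all miRNAs. The pairing behind the block was chosen from these same data.

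The call of let-7g rested on single pools. Its log2 fold change was -0.98 without TC replicate 1, -0.85 without TC replicate 3, -0.88 without heifer replicate 1 and -0.94 without heifer replicate 2, and it was then no longer called, with adjusted p-values of 0.531, 0.376, 0.522 and 0.504 in limma. The pools with the same replicate number deviated together in this comparison, and with the replicate number as a block 29 miRNAs were called in place of 16, let-7g among them (adjusted p = 0.0462, limma). When the RNA day was added to the limma fit, 0 miRNAs were called, and let-7g kept its log2 fold change of -1.05 with a larger SE of 0.32 and an adjusted p-value of 0.358. In DESeq2 the log2 fold change of let-7g was -0.99 (adjusted p = 0.0841), and with DESeq2 size factors in limma -0.97 (adjusted p = 0.242), both just short of the fold limit. With total reads in place of TMM, the median log2 fold change of all miRNAs moved to -0.24 and that of the members to -0.76, all 8 members stayed negative, and let-7c was called beside let-7g.

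In APCs, too, all 8 members had a negative log2 fold change against heifers, and 0 of 8 were called by limma, where 12.4% of the 233 miRNAs tested were called. By the quasi-likelihood test and by DESeq2 the count was also 0, and 1 member had an unadjusted p-value under 0.05 in limma. That member was let-7e, at 1688 and 2411 CPM in APCs against 4680, 3598 and 4108 CPM in heifers, with both APC pools below the heifers. Its log2 fold change was -0.87 (SE 0.34, 95% interval -1.69 to -0.05), with an adjusted p-value of 0.276 in limma. let-7g had a log2 fold change of -0.79 (SE 0.39, adjusted p = 0.387, limma), and the members ranged up to -0.15 for let-7a-5p. Their median was -0.42 against 0.03 over all miRNAs. In 4 of the 8 members (let-7c, let-7e, let-7f and let-7g) the groups did not overlap, where 36.1% of all miRNAs did not.

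The number of let-7 calls in APCs depended on the scaling. With total reads in place of TMM, the median log2 fold change of all miRNAs moved to -0.54, and 4 of the 8 members were called (let-7c, let-7e, let-7g and let-7i), where 27.0% of all miRNAs were. With the values as deposited it moved to -0.31, and let-7e and let-7g were called, 2 of 8, where 21.0% of all miRNAs were. The median of the members minus that of all miRNAs lay between -0.54 and -0.40 under the alternatives other than leaving out a pool.

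ANCs had another pattern. Against heifers, 2 of the 8 members had a negative log2 fold change, let-7g (-0.70, SE 0.35) and let-7b (-0.66, SE 0.33), both with an adjusted p-value of 0.245 in limma, and 6 had a positive one. The counts of negative members were 4 with total reads and 5 with the values as deposited, so the signs of let-7a-5p, let-7c and let-7d, all under 0.11 in size, depend on the scaling. let-7b measured 50745 and 40646 CPM in ANCs, and 82965, 99748 and 53781 CPM in heifers. let-7f measured 23675 and 27551 CPM in ANCs, above the 22001, 18634 and 18655 CPM of heifers, with a log2 fold change of 0.46 (SE 0.30, adjusted p = 0.328, limma). let-7e had a log2 fold change of 0.26 (SE 0.32, adjusted p = 0.597, limma).

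No member was called by limma between ANCs and heifers, 0 of 8, where 18.6% of the 215 miRNAs tested were called, and 0 members had an unadjusted p-value under 0.05. The quasi-likelihood test and DESeq2 called 0 members as well. In 4 of the 8 members (let-7b, let-7e, let-7f and let-7g) the groups did not overlap, close to the 47.4% of all miRNAs. The median of the members was 0.08 against 0.00 over all miRNAs.

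In TCs at weeks 9 to 10 all 8 members had negative log2 fold changes against heifers on the TMM scale (7 with the values as deposited), but small ones, from -0.47 (let-7b) to -0.03 (let-7i), with a median of -0.19 against 0.02 over all miRNAs. All 8 overlapped between the groups, where 15.4% of all miRNAs did not overlap. limma called 0 of the 8 members and 0% of the 227 miRNAs tested, and at an unadjusted p-value under 0.05 there were 24 miRNAs, none of them a member. Over all miRNAs DESeq2 called 14 and the quasi-likelihood test 0. The 3 pools differed among themselves by more than most members differed from heifers: let-7g was at 6877 CPM in replicate 1 and at 2625 CPM in replicate 2. Without replicate 2, 4 of the 8 members had a negative log2 fold change and the median was -0.03.

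**Figure D3:**
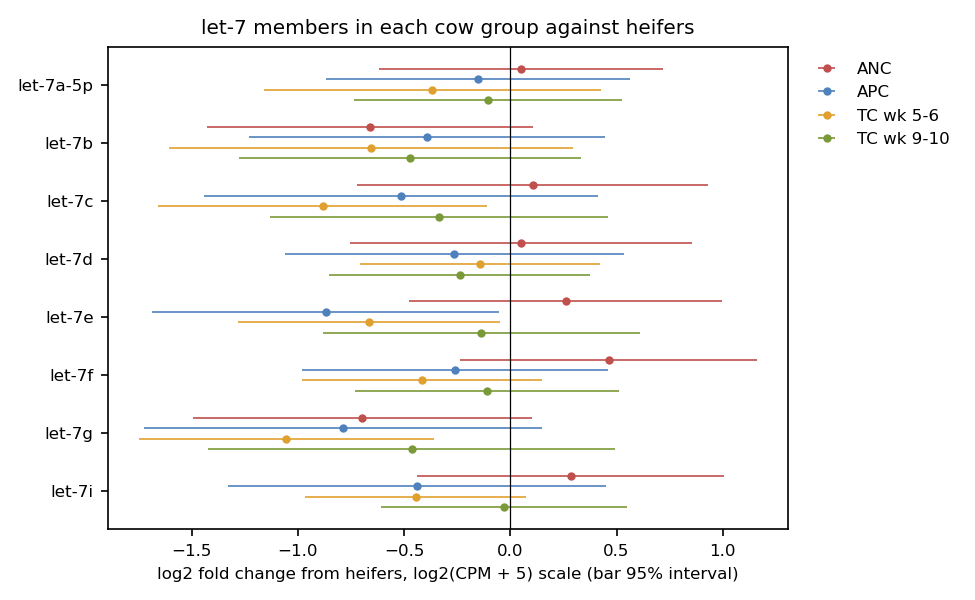
Log2 fold change of each let-7 member from heifers on the log2(CPM + 5) scale (x axis) in the 4 cow groups, with bars for the 95% interval from limma. The intervals exclude 0 for let-7c, let-7e and let-7g in TCs at weeks 5 to 6 and for let-7e in APCs, and include it for the others.

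Among cows, always negative and always positive energy balance were compared at the same weeks. let-7e was at 4956 and 4312 CPM in ANCs and at 1688 and 2411 CPM in APCs, a 2.35-fold higher level and a log2 fold change of 1.23 (SE 0.39, 95% interval 0.23 to 2.23). Its p-value in limma was 0.0249 before and 0.535 after adjustment, so it was not called. The exact permutation p-value of let-7e was 0.333, the smallest that 2 pools against 2 can give. let-7f, at 23675 and 27551 CPM against 14623 and 14909 CPM, had a log2 fold change of 0.83 (SE 0.36). let-7i had one of 0.83 (SE 0.51), let-7c of 0.72 (SE 0.39) and let-7a-5p of 0.31 (SE 0.36), each with both ANC pools above both APC pools.

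For these 5 of the 8 members the groups did not overlap, where 43.5% of all miRNAs did not. The median of the members was 0.57 against -0.01 over all miRNAs, and let-7b was the one member with a negative value (-0.17, SE 0.37), which turned positive with total reads. limma called 0 of the 8 members and 0% of the 207 miRNAs tested. Over all miRNAs, limma gave 17 at an unadjusted p-value under 0.05 (let-7e the 1 member among them). The quasi-likelihood test called 0 and DESeq2 called 6, with 0 members in each. The median over all miRNAs moved to 0.40 with total reads, where that of the members was 0.97.

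ANCs and TCs, both in negative balance at weeks 5 to 6, were compared as well. let-7c had a log2 fold change of 0.88 (SE 0.38) in ANCs against TCs, let-7e of 0.82 (SE 0.37), let-7f of 0.77 (SE 0.37) and let-7i of 0.62 (SE 0.37), and in these 4 of the 8 members the groups did not overlap, where 27.1% of all miRNAs did not. Their adjusted p-values in limma were 0.550 to 0.582. The comparison shares the ANC pools with the one before. limma called 0 of the 8 members and 0% of the 225 miRNAs tested, with 18 miRNAs and 0 members at an unadjusted p-value under 0.05. The quasi-likelihood test and DESeq2 also called 0 members. The median of the members was 0.46 against -0.09 over all miRNAs.

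APCs and TCs at weeks 5 to 6 gave the closest let-7 levels. The log2 fold changes of the members ranged from -0.31 (let-7e) to 0.26 (let-7c), with a median of 0.08 against -0.02 over all miRNAs. All 8 overlapped between the groups, where 15.1% of all miRNAs did not overlap. limma called 0 of the 8 and 0% of the 225 miRNAs tested, with 6 miRNAs and 0 members at an unadjusted p-value under 0.05. DESeq2 called 1 miRNA, no member, and the quasi-likelihood test 0. The 95% intervals were wide, for example -0.70 to 1.23 for let-7c, so equal levels are not shown.

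Between the TC times, which ask how EV miRNAs differ as the balance recovers, 7 of the 8 members had a higher mean at weeks 9 to 10. let-7i was the member whose pools did not overlap, at 28714, 21993 and 21480 CPM against 19140, 18246 and 18246 CPM, with a log2 fold change of 0.38 (SE 0.30, adjusted p = 0.671, limma). This is 1 of 8 members, where 13.4% of all miRNAs did not overlap. let-7g had a log2 fold change of 0.55 (SE 0.41), let-7c of 0.51 (SE 0.34) and let-7e of 0.49 (SE 0.36), with overlapping pools, and let-7d was the one negative member, at -0.13. limma called 0 of the 8 members and 0% of the 224 miRNAs tested, with 12 miRNAs and 0 members at an unadjusted p-value under 0.05. DESeq2 called 1 miRNA and the quasi-likelihood test 0, none of them a let-7 member. With total reads or the values as deposited all 8 members were positive.

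The composition of the family, as the share of each member in the let-7 reads of a pool, does not depend on the scaling between pools. let-7b held 29.9% and 27.7% of the let-7 reads in ANCs and 34.1% to 47.5% in the other 11 pools, so both ANC pools were below the rest. let-7f held 14.0% and 18.8% in ANCs and 8.88% to 13.5% in the others. let-7e held 2.92% and 2.94% in ANCs and 1.28% to 2.77% in the others. These 3 members set the ANC pools apart in composition, the abundant let-7b downwards and let-7f and let-7e upwards. Separation of the ANC pools was common in levels, where 47.4% of all miRNAs did not overlap between ANCs and heifers. The gap to the nearest other pool was small for let-7e (2.92% against 2.77%) and for let-7f (14.0% against 13.5%). The shares of a pool add to a fixed total, so a lower let-7b share raises the others, and the 3 are not separate signals. The ANC pools also had the highest sums of the follicular list and the lowest of the leukocyte list. For ANCs against heifers this order was known beforehand, since the paper lists most of these miRNAs as changed that way. The part of both lists in the composition was not tested.

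**Figure D4:**
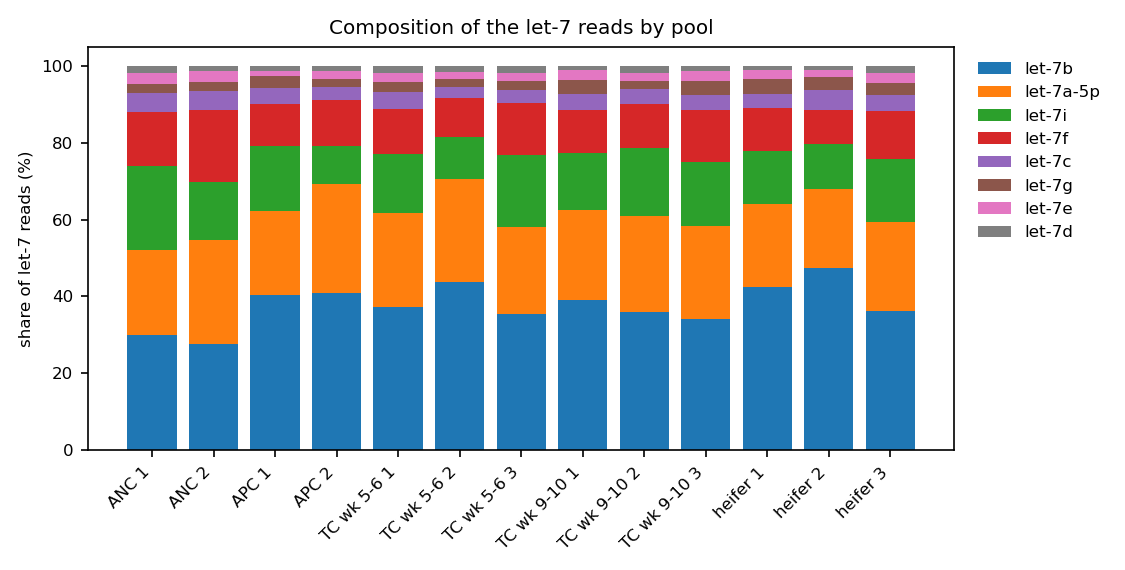
Share of each member in the let-7 reads (y axis, percent) of each of the 13 pools (x axis), stacked to 100%. The let-7b block is shortest in the 2 ANC pools, at 29.9% and 27.7%, and the let-7f block is tallest there, at 14.0% and 18.8%.

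The mean share of let-7b was 28.8% ± 1.59 (SD, n = 2) in ANCs, 42.1% ± 5.63 (n = 3) in heifers, 38.8% ± 4.40 (n = 3) in TCs at weeks 5 to 6 and 40.6% ± 0.34 (n = 2) in APCs. The exact two-sided permutation p-values for ANCs were 0.2 against heifers, 0.1 against TCs and 0.333 against APCs. For let-7f the same 3 p-values were 0.1, 0.1 and 0.333. The reads of let-7b over those of let-7f were 0.83 ± 0.38 on the log2 scale in ANCs, against 1.95 ± 0.45 in heifers, 1.82 ± 0.06 in APCs, 1.71 ± 0.35 in TCs at weeks 5 to 6 and 1.59 ± 0.24 at weeks 9 to 10 (SD). The ratio of let-7b to let-7f in ANCs was below that in every other pool.

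The share of let-7g was 3.76%, 3.41% and 3.08% in heifers and 2.44%, 2.21% and 2.52% in TCs at weeks 5 to 6. It was 2.36% and 2.21% in ANCs and 3.01% and 2.09% in APCs, so the 7 pools of weeks 5 to 6 were below the heifers in share as well as in level. At weeks 9 to 10 it was 3.55%, 2.09% and 3.54%. The exact permutation p-value of the let-7g share against heifers was 0.1 for each of the groups of weeks 5 to 6. That of TCs at weeks 9 to 10 was 0.7.

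Several members differ by few bases, so reads of one can be counted to another, depending on how mismatches were treated. With let-7a-5p, let-7b, let-7c, let-7e and let-7f summed to 1 feature, its log2 fold change against heifers was -0.59 in TCs at weeks 5 to 6 (SE 0.38), -0.36 in APCs (SE 0.34), -0.33 in TCs at weeks 9 to 10 (SE 0.31) and -0.22 in ANCs (SE 0.30), with adjusted p-values of 0.453 to 0.743 in limma. let-7g, which was not in the sum, was still called in TCs at weeks 5 to 6, with a log2 fold change of -1.10.

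The members varied together over the 13 pools to different degrees. As a description over pools that share their scaling, the Spearman correlation of 2 members was positive for all 28 pairs, from 0.25 (let-7d with let-7f) to 0.91 (let-7c with let-7i), with a median of 0.61. let-7g followed the sum of the other members most closely (0.86) and let-7d least (0.49).

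In the bovine RefSeq annotation (ARS-UCD2.0), 11 let-7 genes encode the 8 members. Within 50 kb, MIRLET7A-1 lies with MIRLET7F-1 and MIRLET7D, MIRLET7A-3 with MIRLET7B, MIRLET7A-2 with MIR100 and MIR125B-1, MIRLET7C with MIR99A and MIR125B-2, MIRLET7E with MIR99B and MIR125A, and MIRLET7F-2 with MIR98. MIRLET7G and MIRLET7I have no let-7, miR-99 or miR-125 gene nearby. Over the 13 pools the Spearman correlation was -0.18 for let-7e with miR-125a and -0.01 for let-7e with miR-99b, neighbours in 1 cluster. It was 0.38 for let-7c with miR-99a-5p, 0.14 for let-7a-5p with miR-100 and 0.61 for let-7f with miR-98. let-7a-5p and let-7f each come from several genes, whose contributions the mature reads do not separate.

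The 6 related miRNAs with values in all groups were miR-98, which has the let-7 seed, and miR-99a-5p, miR-99b, miR-100, miR-125a and miR-125b from the shared clusters. miR-125a rose in ANCs against heifers, with a log2 fold change of 1.02 (SE 0.35, adjusted p = 0.138, limma), and was the 1 of these 6 called in that comparison, where 18.6% of all miRNAs were called. It measured 11350 and 8576 CPM in ANCs and 5268, 4057 and 6420 CPM in heifers. miR-125b had a log2 fold change of 0.81 (SE 0.33, adjusted p = 0.209) and miR-99b of 0.84 (SE 0.42, adjusted p = 0.245) in the same limma fit. In the other 7 comparisons limma called 0 of the 6. The median log2 fold change of the 6 against heifers was 0.63 in ANCs, 0.48 in APCs, 0.22 in TCs at weeks 5 to 6 and 0.29 at weeks 9 to 10, while that of the let-7 members was 0.08, -0.42, -0.55 and -0.19.

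miR-98 measured 233, 159 and 264 CPM in TCs at weeks 5 to 6 and 277, 300 and 369 CPM in heifers, without overlap, with a log2 fold change of -0.54 (SE 0.31, adjusted p = 0.417, limma). In ANCs miR-98 measured 380 and 435 CPM, and its log2 fold change against heifers was 0.46 (SE 0.36, adjusted p = 0.406, limma). The pools of ANCs and heifers overlapped for miR-98 when the 2 groups were scaled together. The passenger strand let-7a-3p was listed for TCs at weeks 9 to 10, with 5, 4 and 6 reads, and for heifers, with 2, 3 and 4 reads, and was not analysed in the other groups. There were 2004 to 5731 let-7a-5p reads for each let-7a-3p read, so the let-7a reads of these 6 pools were nearly all guide strand.

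Among 212 other miRNAs with a mean of at least 10 reads, the patterns most like the summed let-7 level over the 13 pools were those of miR-190b (Spearman correlation 0.84), miR-186 (0.80) and miR-151-3p (0.77). The most opposite were miR-193a-5p (-0.82), miR-24-3p (-0.81) and miR-502a (-0.81). miR-24-3p ranged from 5445 CPM in TC replicate 1 of weeks 9 to 10 to 20691 CPM in TC replicate 3 of weeks 5 to 6, and the latter had the lowest let-7 sum of all pools. These correlations are descriptions over libraries scaled together.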

How the data were processed

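Small RNA of EVs from 13 pools of follicular fluid was analysed, in 5 groups taken from the labels. The authors used a QIAseq miRNA library kit, then Cutadapt 1.11 for adaptor removal and Bowtie2 2.2.2 for mapping to UMD3.1, allowing mismatches, with annotation from miRBase. The values deposited by the authors are TMM-normalized CPM, not logged. For some libraries the deposited column was treated as a signal, because TMM takes its total past that of plain CPM. All 3681 values were whole multiples of 1 read within a tolerance of 0.1 reads, and these reads were used to rescale the 2 groups of each comparison with TMM (edgeR 4.0.16), since groups had been normalized in different comparisons. Low miRNAs were removed with filterByExpr (minimum count 10, minimum total 15), and log2(CPM + 5) was fitted with limma 3.58.1 (trend option), which understates the change of low miRNAs. Whole-read tests with edgeR's quasi-likelihood method and DESeq2 1.42.0 were alternatives, as were other scalings, pseudocounts, filters, covariates and leaving out each pool. The listed miRNAs held 145030 to 421435 reads per library, which is not the full sequencing depth, and floors of 3 reads cover counting error only. The fits were tested on simulated data.

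The let-7 members, the related miRNAs and the lists were chosen with earlier results of these data known. The text names all 8 members, the related miRNAs, and the 3 miRNAs most like and the 3 most opposite to the let-7 sum. The replicate numbers come from the labels. Same-numbered pools of TCs at weeks 5 to 6 and heifers deviated together from their group means, with correlations of 0.22, 0.38 and 0.39 for replicates 1, 2 and 3, and were treated as paired in a fit with the replicate number as a block. These pools hold different animals, and the pairing was chosen from correlations in the same data. The p-values of the block fit depend on that choice. The day of RNA measurement is given by the study's supplement, which does not list APC replicate 2. RefSeq gene positions (ARS-UCD2.0) were used only to find which miRNA genes lie near each other, and mature sequences were not used here.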

Additional observations from a re-analysis of the deposited data

Results flagged for a closer look

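let-7f lay on opposite sides of the heifers in different cow groups. On the TMM scale both ANC pools were above every heifer pool, and both APC pools and all 3 TC pools of weeks 5 to 6 were below every heifer pool. Over all miRNAs, 47.4%, 36.1% and 22.2% did not overlap with heifers in ANCs, APCs and these TCs. The log2 fold change of ANCs from heifers was 0.46, and 0.21 with the values as deposited, where the pools overlapped. The differences between the cow groups themselves did not pass the threshold in limma: the log2 fold change was 0.83 between ANCs and APCs (adjusted p = 0.535) and 0.77 between ANCs and TCs (adjusted p = 0.567). No group had the 4 pools needed to look for single outlying pools.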

How the results depend on the processing

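Of the 64 differences of members between groups, 24 changed sign under at least one alternative, all of them with a log2 fold change of at most 0.44 in size, and none of the 23 that were called, separated the groups or had an unadjusted p-value under 0.05. The number of let-7 members called against heifers was 1 in TCs at weeks 5 to 6. It became 0 with DESeq2 (let-7g at -0.99), with DESeq2 size factors (-0.97) and with the RNA day as a covariate (-1.05). It became 2 with total reads, and also 2 with the adjusted limit alone, that is, without the fold and unadjusted p-value limits. In APCs it was 0, and became 4 with total reads, 2 as deposited and 1 with all 13 libraries in one fit. In ANCs it was 0, and became 2 with the adjusted limit alone, though no member there had an unadjusted p-value under 0.05 in limma. With the replicate block, 1 member (let-7e) was called between ANCs and APCs. Over all miRNAs, the calls for ANCs against heifers moved from 40 to 65 with the replicate block and to 72 with the adjusted limit alone. Those for APCs moved from 29 to 63 with total reads, 49 as deposited and 0 with the RNA day, a fit that also leaves out APC replicate 2, without which 45 were called when the day was not in the fit. Those for TCs at weeks 5 to 6 moved from 16 to 36 with DESeq2, 26 with total reads and 29 with the replicate block. They moved to 29 with the adjusted limit alone and to 0 with the RNA day. For TCs at weeks 9 to 10 against heifers they moved from 0 to 14 with DESeq2, 6 with total reads, 7 with the replicate block and 4 in one fit. DESeq2 called 6 for ANCs against APCs, 1 for APCs against TCs and 1 between the TC times, and the replicate block called 28 for ANCs against APCs and 2 for ANCs against TCs. The log2 difference of the family between APCs and heifers moved from -0.50 to -0.94 with total reads. The causes were not tested. The replicate block changed no other let-7 call, and in comparisons other than TCs at weeks 5 to 6 with heifers the numbers were not taken to pair the pools, since the same-numbered correlations were -0.17 to 0.22. A fit of ANCs against APCs with the RNA day has no residual degrees of freedom.

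Leaving out single pools, the calls over all miRNAs ranged from 0 to 54 for ANCs against heifers, 3 to 48 for APCs, 0 to 46 for TCs at weeks 5 to 6 and 0 to 25 at weeks 9 to 10. They ranged from 0 to 36 for ANCs against APCs, 0 to 7 for ANCs against TCs, 0 to 4 for APCs against TCs and 0 to 22 between the TC times. The let-7 members called ranged from 0 to 1 for APCs against heifers and from 0 to 2 for TCs at weeks 5 to 6. A pool left out of a pair leaves 1 pool, which is assumed to vary like the others.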
